A study of Mus musculus with 4 samples.

Results

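The genes described here are receptors through which endothelin, vasopressin, oxytocin, angiotensin, prostanoids, ATP and noradrenaline contract peritubular and vascular muscle, together with the ligand gene endothelin 1. They were chosen by name, and all 10 were found among the 22802 rows of the deposited table, each in a row of its own. RNA was sequenced from interstitial cells of C57BL/6J mouse testis, dispersed at postnatal day 10 and sorted for EGFP and laminin. There were 2 samples of laminin-positive and 2 of laminin-negative cells, and the question was which transcripts differ with laminin staining. Both groups came from mFLE-Cre;CAG-CAT-EGFP mice, in which Cre recombinase switches on an EGFP reporter. The labels do not spell out the mFLE driver. Every sample label gives its cells as EGFP-positive, whereas the series text gives EGFP as weak in the laminin-negative population, so laminin staining and EGFP level cannot be told apart. The labels do not tie samples to animals. The p-values therefore reflect sample-to-sample spread only, part or all of which may be technical.

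Smooth muscle contracts when calcium enters the cytoplasm and myosin light chain is phosphorylated. Most of the receptors considered here start this by coupling to Gq-type G proteins, which activate phospholipase C and release stored calcium, while P2rx1 is itself an ATP-gated cation channel. In the testis, peritubular myoid cells surround the seminiferous tubules and are known to contract to endothelin, vasopressin, oxytocin and prostanoids, and vascular muscle sets blood flow. Leydig cells, the steroid-producing cells of the interstitium, are known to carry vasopressin receptors as well.

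The populations held these receptor transcripts in different proportions. Laminin-positive cells had more of both endothelin receptors, Ednra and Ednrb, and of P2rx1, whereas they had less of the vasopressin receptor Avpr1a, the oxytocin receptor Oxtr and the thromboxane receptor Tbxa2r. The largest of the member differences were those of Ednrb, 38.1-fold higher in laminin-positive cells, and Oxtr, 40.0-fold lower there. Ednra was the most abundant member in every library. Of the 10 members, 7 reached the filter of 1 FPKM in at least 2 libraries and were tested, and Edn1, Ptgfr and Adra1d did not. Ednrb and P2rx1 passed only through the laminin-positive and Oxtr only through the laminin-negative libraries, so these 3 had to differ. Of the 7 tested members, limma called 3 higher and 3 lower at an adjusted p under 0.05, against 26.6% higher and 26.3% lower among all 12348 tested genes, 52.9% in all. In bulk samples, fewer cells of a type and less RNA per cell cannot be told apart.

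**Figure D1:**
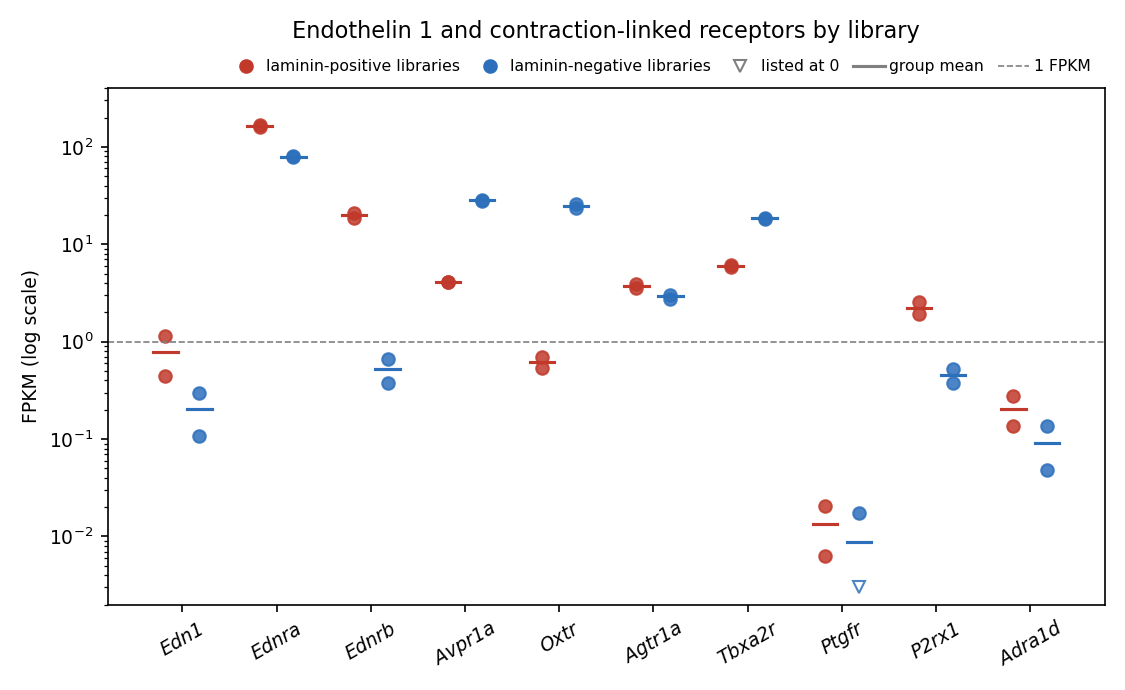
FPKM (log scale) of the 10 genes in each library, with laminin-positive libraries (red) left of laminin-negative libraries (blue) for each gene; horizontal bars are group means, the dashed line is 1 FPKM and an open triangle marks a value listed at 0. Ednra and Ednrb stand higher in laminin-positive libraries and Avpr1a, Oxtr and Tbxa2r lower, while Ptgfr and Adra1d stay below 1 FPKM in every library.

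Library sums ran from 491475 to 548986 FPKM, and 11794 to 12011 rows reached 1 FPKM. Leydig cell markers were lower in laminin-positive libraries in 7 of 7 cases and summed there to 208 and 162 FPKM, against 4870 and 4613 FPKM in laminin-negative libraries. Smooth muscle and peritubular myoid markers were higher in 10 of 10 cases, at sums of 5600 and 5653 FPKM in laminin-positive and 207 and 192 FPKM in laminin-negative libraries. Pericyte and vascular smooth muscle markers were higher in 9 of 9 cases, at sums of 345 and 359 FPKM against 54.7 and 51.2 FPKM. Macrophage markers were higher in 7 of 7 tested cases of 10 listed, at sums of 44.3 and 38.0 FPKM in laminin-positive and 7.02 and 4.29 FPKM in laminin-negative libraries. Of 6 tested Sertoli cell markers 4 were higher and 0 lower, and of 8 germ cell markers 6 were higher and 1, Kit, lower. The germ cell list summed to 31.1 and 31.3 FPKM in laminin-positive and 50.1 and 51.35 FPKM in laminin-negative libraries. Kit alone gave 38.65 and 37.4 FPKM in laminin-negative libraries. Synpo2, Cox4i2, Higd1b, Adgre1, C1qa, C1qb, Csf1r, Mrc1, Amh, Dhh, Ddx4 and Stra8 passed the filter only through the laminin-positive libraries. Their direction was therefore built in. Among all tested genes, 26.6% were called higher and 26.3% lower. No listed marker of these types was at 0 in every library. The part of these cell types in the receptor differences was not tested.

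Endothelin receptors came first in abundance. Ednra encodes the ETA receptor, the main contractile endothelin receptor of smooth muscle (GRCm38 chromosome 8, 77663031 to 77724464, minus strand). It stood at 158 and 167 FPKM in laminin-positive libraries, against 79.8 and 78.6 FPKM in laminin-negative libraries. The groups did not overlap, and Ednra was clearly expressed in both populations. Above it lay 1.92% and 1.82% of all rows in laminin-positive libraries, and 4.197% and 4.32% in laminin-negative libraries. The group means differed 2.06-fold, a log2 difference on the log2(FPKM + 1) scale of 1.03 (SE 0.07, limma adjusted p = 5.13e-07).

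Ednrb encodes the ETB receptor, which contracts some muscle cells and in other settings clears endothelin or relaxes vessels through the endothelium (chromosome 14, 103814625 to 103844402, minus strand). Its levels were 18.5 and 21.02 FPKM in laminin-positive and 0.666 and 0.374 FPKM in laminin-negative libraries. Both laminin-positive libraries were far above both laminin-negative ones. The log2 difference was 3.78 (SE 0.13, limma adjusted p = 1.86e-09), and since the laminin-negative mean was only 0.520 ± 0.207 FPKM (SD, n = 2), the size of the 38.1-fold ratio is uncertain. Ednrb made up 10.5% and 11.2% of the summed endothelin receptor FPKM in laminin-positive libraries, against 0.827% and 0.473% in laminin-negative libraries. ETA transcripts therefore formed the larger part in all 4 libraries. No test was made of this share, because with 2 libraries a group the smallest p that exact permutation allows is 0.333.

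The proximal promoters of both receptor genes are shown because the genes moved in the same direction with different starting levels. They are taken from RefSeq (GRCm38.p6) and run from 250 bases before to 50 bases after the annotated start, 5′ to 3′ on the gene's strand. Ednra lies at chr8:77724403-77724702 and Ednrb at chr14:103843652-103843951, both on the minus strand. The Ednrb window is set by the RefSeq start and lies inside the GENCODE gene span given above, downstream of its 5′ end. Capitals mark matches, on either strand, to the CArG box bound by serum response factor, the GC box GGGCGG, the NR5A half-site CAAGGTCA, TATAAA or the E-box CANNTG.
Ednra: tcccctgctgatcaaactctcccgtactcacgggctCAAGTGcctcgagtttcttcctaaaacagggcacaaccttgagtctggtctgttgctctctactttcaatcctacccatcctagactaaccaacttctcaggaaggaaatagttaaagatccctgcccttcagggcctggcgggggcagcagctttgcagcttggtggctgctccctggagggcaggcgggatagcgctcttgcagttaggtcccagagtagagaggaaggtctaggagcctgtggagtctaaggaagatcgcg
Ednrb: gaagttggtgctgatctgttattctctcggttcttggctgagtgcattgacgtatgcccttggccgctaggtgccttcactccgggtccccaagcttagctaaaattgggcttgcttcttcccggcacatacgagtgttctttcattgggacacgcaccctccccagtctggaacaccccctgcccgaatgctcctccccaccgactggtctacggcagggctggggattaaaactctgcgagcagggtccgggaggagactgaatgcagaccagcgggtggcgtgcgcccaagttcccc
The Ednra window held 1 E-box and the Ednrb window at this start none of the 5 motifs. Of 32851 windows of 300 bases, 72.3% held an E-box, 35.7% a GC box, 13.6% TATAAA, 1.63% a CArG box and 1.56% the NR5A half-site. GC content was 54.7% in the Ednra window and 58.7% in the Ednrb window, with a median of 52.7% over all windows.

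Edn1, which encodes the ligand endothelin 1 and is known chiefly from endothelial cells (chromosome 13, 42301476 to 42307990), was low throughout. It was at 1.13 and 0.443 FPKM in laminin-positive and 0.107 and 0.297 FPKM in laminin-negative libraries. These groups did not overlap, but the laminin-positive libraries differed more from each other than the nearer one did from the laminin-negative libraries, and Edn1 missed the filter. Of 10 endothelial markers 5 were tested, with Emcn and Esam higher, Cdh5 and Tek lower and Egfl7 not called. Emcn and Esam passed the filter only through the laminin-positive libraries and Tek only through the laminin-negative libraries, so their direction was built in. The list summed to 27.2 and 25.6 FPKM in laminin-positive and 174.5 and 182 FPKM in laminin-negative libraries, where Cdh5 alone gave 165 and 173 FPKM. Pecam1, a defining endothelial marker, was at 0.869 and 0.615 FPKM in laminin-positive and 0.126 and 0.141 FPKM in laminin-negative libraries, and Tie1 was listed at 0 in both laminin-negative libraries. The part of endothelial cells in the Edn1 values was not tested.

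Of the other endothelin ligand genes, Edn3 was tested and Edn2 was not. Edn3, another endothelin gene, was at 0.912 and 0.803 FPKM in laminin-positive and 4.12 and 4.003 FPKM in laminin-negative libraries, and it fell (log2 difference −1.45, limma adjusted p = 1.89e-06). It passed the filter only through the laminin-negative libraries, so a difference in this direction was built in. Edn2 stayed below 1 FPKM in every library, at 0.221 and 0.138 FPKM in laminin-positive and 0.481 and 0.385 FPKM in laminin-negative libraries. Ece1, the main enzyme that cuts the inactive precursor to endothelin, was abundant in both populations. It averaged 53.7 ± 1.69 FPKM in laminin-positive and 69.2 ± 2.52 FPKM in laminin-negative cells (SD, n = 2 each), a small fall (limma adjusted p = 0.00183) that was lost without variance shared across genes (adjusted p = 0.0655).

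The vasopressin and oxytocin receptors showed the opposite pattern. Avpr1a encodes the V1a receptor, which contracts vascular muscle (chromosome 10, 122448499 to 122453452, plus strand). It was at 4.12 and 4.13 FPKM in laminin-positive libraries, against 28.6 and 27.9 FPKM in laminin-negative libraries. The replicates were close and the groups well apart, 6.84-fold lower in laminin-positive cells (log2 difference −2.51, SE 0.09, limma adjusted p = 2.74e-09).

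Oxtr, the gene of the oxytocin receptor (chromosome 6, 112473683 to 112489943, minus strand), was at 0.703 and 0.533 FPKM in laminin-positive and 25.9 and 23.4 FPKM in laminin-negative libraries. It was near the bottom of the expressed range in laminin-positive cells, below the 1 FPKM filter. The log2 difference of −3.99 (SE 0.11, limma adjusted p = 5.60e-10) was the largest among the members, and its 40.0-fold ratio rests on a laminin-positive mean of 0.618 ± 0.121 FPKM (SD, n = 2). Oxtr and Avpr1a were almost level in laminin-negative cells, where Oxtr gave 47.5% and 45.7% of their summed FPKM. In laminin-positive libraries Oxtr gave 14.6% and 11.4% of that sum. The 7 Leydig cell markers fell in the same libraries, and their part in the Avpr1a and Oxtr differences was not tested.

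Promoter windows of the genes that fell together are shown in the same way, with the same motifs in capitals. Avpr1a lies at chr10:122448249-122448548 on the plus strand and Oxtr at chr6:112489776-112490075 on the minus strand. Tbxa2r has 2 annotated starts, and the windows at chr10:81328018-81328317 (upstream) and chr10:81328453-81328752 (downstream) on the plus strand are both shown. The deposited Tbxa2r row begins near the downstream start.
Avpr1a: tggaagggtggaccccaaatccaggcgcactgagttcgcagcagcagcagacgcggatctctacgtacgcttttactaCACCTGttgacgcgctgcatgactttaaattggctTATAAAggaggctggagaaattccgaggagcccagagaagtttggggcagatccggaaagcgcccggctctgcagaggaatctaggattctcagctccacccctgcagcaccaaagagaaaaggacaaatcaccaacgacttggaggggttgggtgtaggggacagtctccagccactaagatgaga
Oxtr: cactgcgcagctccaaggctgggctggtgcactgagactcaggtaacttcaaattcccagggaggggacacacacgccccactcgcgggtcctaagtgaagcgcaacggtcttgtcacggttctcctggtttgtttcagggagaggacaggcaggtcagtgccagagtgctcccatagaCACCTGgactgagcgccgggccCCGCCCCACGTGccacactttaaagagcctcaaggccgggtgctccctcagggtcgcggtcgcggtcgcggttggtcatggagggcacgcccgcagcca
Tbxa2r, upstream start: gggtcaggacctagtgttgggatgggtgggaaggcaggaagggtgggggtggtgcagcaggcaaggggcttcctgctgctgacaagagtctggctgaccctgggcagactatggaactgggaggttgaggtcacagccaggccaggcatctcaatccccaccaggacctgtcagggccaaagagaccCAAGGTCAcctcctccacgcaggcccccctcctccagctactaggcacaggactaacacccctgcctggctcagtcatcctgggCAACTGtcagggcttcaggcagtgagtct
Tbxa2r, downstream start: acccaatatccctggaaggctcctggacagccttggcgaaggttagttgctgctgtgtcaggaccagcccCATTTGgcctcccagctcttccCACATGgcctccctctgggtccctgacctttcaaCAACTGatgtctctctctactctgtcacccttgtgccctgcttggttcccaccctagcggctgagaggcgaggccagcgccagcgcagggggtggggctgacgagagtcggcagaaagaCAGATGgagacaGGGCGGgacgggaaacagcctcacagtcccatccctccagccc
The Avpr1a window held TATAAA and 1 E-box, and the Oxtr window 1 GC box next to 1 of its 2 E-boxes. The NR5A half-site, the sequence that steroidogenic factor Nr5a1 is known to bind, was found in the upstream Tbxa2r window, where it began 63 bases before the start, and in no other of the 9 windows of 8 members in the table. The downstream Tbxa2r window, where the deposited row begins, held no NR5A half-site, 1 GC box and 4 E-boxes. A match describes the letters in the window only.

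The transcripts of the hormones themselves were scarce. Avp, the vasopressin gene, was at 0.394 and 0 FPKM in laminin-positive and 0.860 and 0 FPKM in laminin-negative libraries. Oxt, the oxytocin gene, was at 0.192 and 0.539 FPKM in laminin-positive and 0.205 and 1.49 FPKM in laminin-negative libraries, so the groups overlapped for both genes. Among the other vasopressin receptors, Avpr1b was listed at 0 in every library, and Avpr2 did not exceed 0.0661 FPKM. Lnpep, which encodes the oxytocin-degrading aminopeptidase oxytocinase, averaged 13.9 ± 2.28 FPKM in laminin-positive and 14.8 ± 4.47 FPKM in laminin-negative cells, and was not called (limma adjusted p = 0.782).

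**Figure D2:**
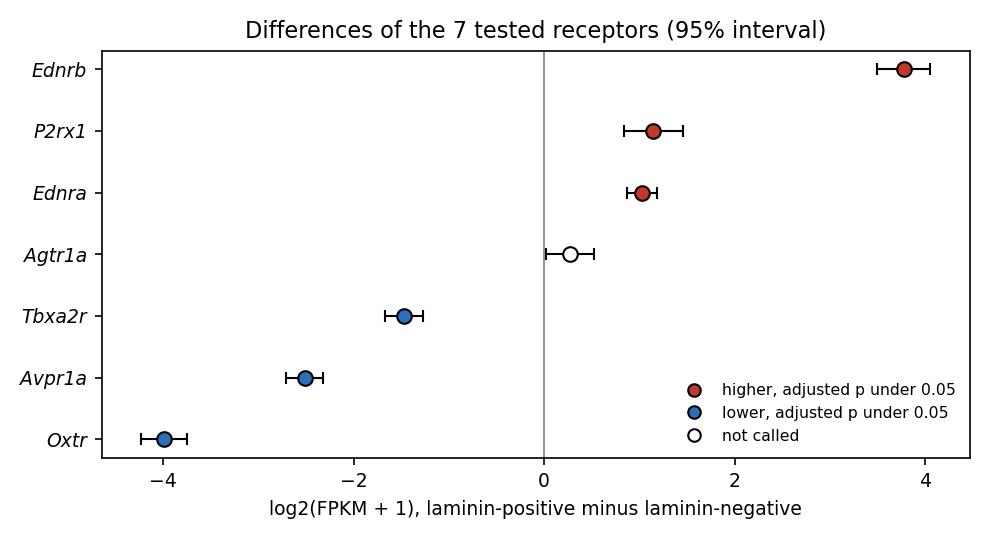
Difference of log2(FPKM + 1), laminin-positive minus laminin-negative, with its 95% confidence interval from limma, for the 7 members that passed the filter; red marks genes called higher, blue genes called lower and white a gene not called. Ednrb and Oxtr lie at the ends, at 3.78 and −3.99, and the interval of Agtr1a runs from 0.02 to 0.53.

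Angiotensin II contracts vessels through the AT1 receptor, which is encoded by Agtr1a and Agtr1b in mice. Agtr1a (chromosome 13, 30336441 to 30382867, plus strand) was at 3.52 and 3.93 FPKM in laminin-positive and 3.05 and 2.77 FPKM in laminin-negative libraries. The groups did not overlap but lay close, and the log2 difference of 0.27 (SE 0.11, 95% interval 0.02 to 0.53) was not called by limma (adjusted p = 0.0653). Agtr1a was called higher with equal FPKM sums (adjusted p = 0.0241) and without an intensity trend (0.0393), and its adjusted p ran between 0.0241 and 0.341 across the 11 alternatives. Agtr1b did not exceed 0.0357 FPKM.

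Other renin-angiotensin genes differed in both directions. Agtr2, the AT2 receptor that opposes AT1 in vessels, was at 0.170 and 0.233 FPKM in laminin-positive libraries, against 15.8 and 18.9 FPKM in laminin-negative libraries (log2 difference −3.93, limma adjusted p = 1.07e-09). Agtr2 passed the filter only through the laminin-negative libraries, so its direction was built in. Agt, the gene of the precursor angiotensinogen, fell to 31.3 ± 0.437 FPKM in laminin-positive cells, against 168 ± 3.13 FPKM in laminin-negative cells. The row that merges the renin genes Ren1 and Ren2 averaged 9.10 ± 1.31 FPKM in laminin-positive and 244 ± 0.839 FPKM in laminin-negative cells, and the deposited row does not separate them. Ace, the enzyme that forms angiotensin II, rose to 241 ± 0.660 FPKM in laminin-positive cells, against 69.7 ± 0.127 FPKM in laminin-negative cells (limma adjusted p = 5.63e-09). Transcripts of precursor and renin were thus lower, and those of the converting enzyme higher, in laminin-positive cells.

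Of the prostanoid receptors, Tbxa2r is the receptor of thromboxane A2, a constrictor (chromosome 10, 81328731 to 81335172, plus strand). It was at 5.86 and 6.20 FPKM in laminin-positive and 18.1 and 18.8 FPKM in laminin-negative libraries. The groups were well apart, 3.06-fold lower in laminin-positive cells (log2 difference −1.47, SE 0.09, limma adjusted p = 2.21e-07). Ptgfr, the receptor of prostaglandin F2α (chromosome 3, 151796502 to 151837630, minus strand), was at 0.0206 and 0.00637 FPKM in laminin-positive and 0 and 0.0174 FPKM in laminin-negative libraries, and the groups overlapped. Multiplied by the longest annotated transcript length, its values above 0 came to 1.2 to 3.6 times the level at which the lowest values of single-transcript genes gathered. Expression of Ptgfr was thus not distinguishable from a few fragments.

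Transcripts of enzymes that make prostanoids were measured as well. Ptgis, which makes the vasodilator prostacyclin, rose to 334 ± 8.57 FPKM in laminin-positive cells, against 50.5 ± 3.23 FPKM in laminin-negative cells (limma adjusted p = 5.60e-10). Tbxas1, which makes thromboxane A2, was at 0.0595 and 0.427 FPKM in laminin-positive and 0.0963 and 0.0590 FPKM in laminin-negative libraries. Akr1b3, an aldose reductase that can also form prostaglandin F2α, averaged 107 ± 6.19 FPKM in laminin-positive and 109 ± 3.25 FPKM in laminin-negative cells and was not called (limma adjusted p = 0.824).

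P2rx1, the ATP-gated channel that mediates fast contraction to sympathetic nerves (chromosome 11, 72999103 to 73015200, plus strand), was at 2.53 and 1.91 FPKM in laminin-positive and 0.376 and 0.525 FPKM in laminin-negative libraries. All laminin-negative values lay below the filter. The log2 difference was 1.15 (SE 0.14, limma adjusted p = 5.10e-05), on a scale that understates the 4.93-fold ratio of such low values, and the call was lost without variance shared across genes (adjusted p = 0.0669). P2rx4, another subunit of this channel family, fell slightly, at 7.37 and 8.63 FPKM in laminin-positive and 13.9 and 11.1 FPKM in laminin-negative libraries (limma adjusted p = 0.00201). That call was lost without variance shared across genes (adjusted p = 0.162).

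Genes of enzymes that split extracellular ATP differed in both directions. Entpd1, which removes phosphates from ATP and ADP, rose to 76.6 ± 5.44 FPKM in laminin-positive cells, against 5.39 ± 0.191 FPKM in laminin-negative cells (14.2-fold, limma adjusted p = 2.12e-10). Entpd2, which acts mainly on ATP, fell to 19.4 ± 0.279 FPKM in laminin-positive cells, against 347 ± 23.5 FPKM in laminin-negative cells (17.9-fold lower, limma adjusted p = 5.78e-11).

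Adra1d, the α1D adrenergic receptor of vascular muscle (chromosome 2, 131545850 to 131562283, minus strand), was at 0.275 and 0.135 FPKM in laminin-positive and 0.135 and 0.0480 FPKM in laminin-negative libraries. Its second laminin-positive and first laminin-negative values were nearly equal, and all values were below the filter. The deposited row spans 477.4 kb, against 16.4 kb for the annotated gene, and contains 11 annotated protein-coding genes, so what was counted for it is uncertain. Adra1a did not exceed 0.226 FPKM. Adra1b, the α1B receptor, was at 0.558 and 0.8001 FPKM in laminin-positive and 1.22 and 1.98 FPKM in laminin-negative libraries (limma adjusted p = 0.00798), a fall that was lost without laminin-negative replicate 2 (adjusted p = 0.0581) and without variance shared across genes (0.207). Adra1b passed the filter only through the laminin-negative libraries, which fixes its direction. Th and Dbh, the genes that make noradrenaline, did not exceed 0.0680 and 0.0798 FPKM.

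Added together, the 9 receptors reached 194.0 and 205 FPKM in laminin-positive libraries, against 157 and 152 FPKM in laminin-negative libraries. Endothelin receptors held 91.2% and 91.8% of that sum in laminin-positive libraries, and 51.4% and 51.8% in laminin-negative libraries. Avpr1a and Oxtr together held 2.49% and 2.27% in laminin-positive libraries, against 34.8% and 33.7% in laminin-negative libraries. Without the endothelin receptors, the sum was 17.0 and 16.8 FPKM in laminin-positive and 76.2 and 73.4 FPKM in laminin-negative libraries. In laminin-positive cells the order of levels was Ednra, Ednrb, Tbxa2r, Avpr1a and Agtr1a, then P2rx1, Oxtr and the receptors below 1 FPKM in every library. Avpr1a and Agtr1a were neighbours there at 4.13 ± 0.00690 and 3.73 ± 0.289 FPKM, a gap of less than 2 SD of Agtr1a. In laminin-negative cells the order was Ednra, Avpr1a, Oxtr, Tbxa2r, Agtr1a, then Ednrb and P2rx1, and these last 2, at 0.520 ± 0.207 and 0.451 ± 0.106 FPKM, did not differ beyond their spread.

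**Figure D3:**
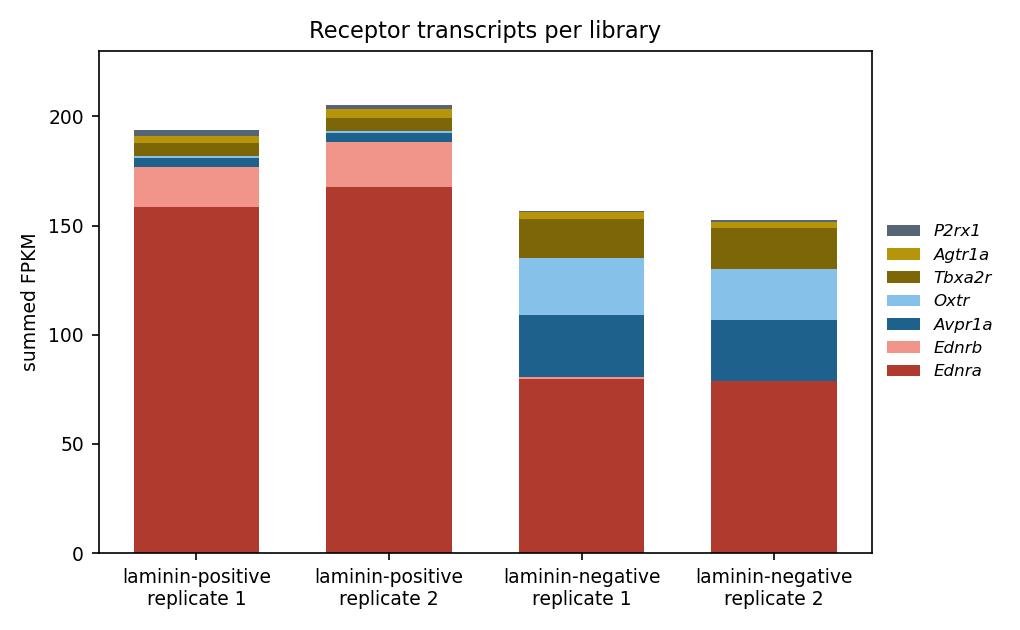
FPKM of the 7 tested receptors stacked by library, with laminin-positive libraries on the left and laminin-negative libraries on the right. Endothelin receptors (reds) fill 91.2% and 91.8% of the member receptor sum in laminin-positive and 51.4% and 51.8% in laminin-negative libraries.

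For the 9 of the 10 members with laminin-positive values all above or all below the laminin-negative values, the background was 67.5% of the rows above 0 in at least 1 library and 77.2% of tested rows. Ptgfr was the exception. The genes nearest in pattern to Ednrb, by Euclidean distance over the 4 log2(FPKM + 1) values, were Kcnip1 (0.21), Ism1 (0.24) and Myom1 (0.25). Kcnip1, a potassium channel-interacting protein gene, was at 21.2 and 21.6 FPKM in laminin-positive and 0.644 and 0.455 FPKM in laminin-negative libraries. Those nearest to Oxtr were Wnt2b (0.26), Fcgr2b (0.40) and Ces2g (0.41). The Wnt ligand gene Wnt2b was at 0.474 and 0.538 FPKM in laminin-positive and 28.6 and 24.4 FPKM in laminin-negative libraries. These distances are a description over 4 libraries.

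Other receptors linked to contraction were mostly weakly expressed, with 26 of 41 below the filter. Of the 15 tested, 3 rose and 8 fell in laminin-positive cells, against 26.6% higher and 26.3% lower among all tested genes, with a median log2 difference of −0.44, against 0.01 over all tested genes. F2r, the thrombin receptor PAR1, rose to 46.2 ± 1.99 FPKM in laminin-positive cells, against 9.33 ± 1.03 FPKM in laminin-negative cells (4.95-fold, limma adjusted p = 1.17e-08). The lysophospholipid receptor genes Lpar1 and S1pr3 also rose, by 1.75-fold and 1.52-fold, the first of these not without variance shared across genes (adjusted p = 0.0608). P2ry6, a UDP receptor, fell to 1.03 ± 0.194 FPKM in laminin-positive cells, against 5.51 ± 0.674 FPKM in laminin-negative cells. The prostaglandin E2 receptor gene Ptger3 and the sphingosine 1-phosphate receptor gene S1pr1 fell too, with laminin-positive means of 0.0361 and 0.818 FPKM, against laminin-negative means of 1.24 and 2.73 FPKM, and passed the filter only through the laminin-negative libraries. Adra1b and the merged row that holds P2ry14 also passed only through those libraries. The direction of Ptger3, S1pr1, Adra1b and P2ry14 was thus built in. Ptger3 was not called without variance shared across genes (adjusted p = 0.0685), and the number called lower was 4 under that setting. Without a filter on low values, 9 of the list were called higher.

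Receptors and cyclases linked to relaxation went both ways, and of 28 listed genes 17 were tested. In laminin-positive cells 8 of these rose and 7 fell, against 26.6% higher and 26.3% lower among all tested genes, with a median log2 difference of 0.30. Adora1, an adenosine receptor that inhibits adenylyl cyclase and so is not a relaxing receptor by that route, was 27.7-fold higher at 6.58 ± 0.147 FPKM in laminin-positive cells, against 0.237 ± 0.0418 FPKM in laminin-negative cells. Adora2b, which raises cyclic AMP, was at 4.71 ± 0.426 FPKM in laminin-positive and 0.337 ± 0.0833 FPKM in laminin-negative cells. Adora1, Adora2b, Adora2a, Ramp1 and Ptger2 passed the filter only through the laminin-positive libraries. Agtr2 and Rxfp1 passed it only through the laminin-negative libraries. The direction of all these genes was thus built in. The natriuretic peptide receptors Npr3, which clears the peptides, and Npr1, a guanylyl cyclase, were 10.7-fold and 3.89-fold lower in laminin-positive cells. Agtr2, described above with angiotensin, had the largest fall in this list.

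Among ligand genes and enzymes that process ligands, 11 of 22 tested genes rose and 7 fell in laminin-positive cells, of 29 listed, against 26.6% higher and 26.3% lower among all tested genes. The list's median log2 difference was 0.26. The largest rises were those of Entpd1, Ptgis and Ace, and the largest falls those of the merged renin row, Entpd2 and Agt, all described above. Ptgs1 and Ptgs2 passed the filter only through the laminin-positive libraries and Edn3 only through the laminin-negative libraries. Their direction was thus built in. Without variance shared across genes, 6 of the list were called higher.

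Downstream of the receptors, 11 of 20 tested genes for G proteins, phospholipase C and calcium release rose and 4 fell, of 26 listed, against 26.6% higher and 26.3% lower among all tested genes. The list's median log2 difference was 0.24. Gnaq, the G protein subunit through which most of these receptors act, was at 27.0 and 27.2 FPKM in laminin-positive and 23.4 and 24.2 FPKM in laminin-negative libraries and was not called (limma adjusted p = 0.0702). It was chosen for mention after its values were seen. Its close relative Gna11 fell by 0.33 on the log2 scale (limma adjusted p = 0.00383), and not with equal FPKM sums (0.0525) or without variance shared across genes (0.0724). Cacna1c, the L-type calcium channel of smooth muscle, was at 4.42 ± 0.290 FPKM in laminin-positive and 1.25 ± 0.313 FPKM in laminin-negative cells. The calcium pump gene Atp2a2 rose 2.42-fold to 204 ± 7.08 FPKM in laminin-positive cells, against 84.5 ± 5.87 FPKM in laminin-negative cells. The IP3 receptor genes moved apart, since Itpr1 was at 62.9 ± 1.82 FPKM in laminin-positive and 27.9 ± 4.06 FPKM in laminin-negative cells, and Itpr3 at 0.667 ± 0.132 FPKM in laminin-positive and 6.09 ± 0.639 FPKM in laminin-negative cells, having passed the filter only through the laminin-negative libraries. Gnas, the stimulatory G protein gene within a complex imprinted locus, fell to 855 ± 1.28 FPKM in laminin-positive cells, against 2042 ± 122 FPKM in laminin-negative cells. Trpc6, among the genes that rose, passed the filter only through the laminin-positive libraries. Without variance shared across genes, 4 of the list were called higher and 2 lower, and Cacna1c (adjusted p = 0.0581) and Itpr1 (0.0621) lost their calls. With equal FPKM sums, 2 were called lower.

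Genes of RhoA signalling and myosin light chain phosphorylation rose in 10 of 19 tested cases and fell in 1, of 20 listed, against 26.6% higher and 26.3% lower among all tested genes. The list's median log2 difference was 0.61. The share called in either direction, 11 of 19, lay near the 52.9% of all tested genes. Mylk, the kinase that phosphorylates myosin light chain, was at 403 ± 32.1 FPKM in laminin-positive and 32.0 ± 3.67 FPKM in laminin-negative cells (12.6-fold, limma adjusted p = 3.48e-10). Its substrate Myl9 reached 2780 ± 59.1 FPKM in laminin-positive cells, against 250.5 ± 5.36 FPKM in laminin-negative cells. Prkg1, the cyclic GMP-dependent kinase that promotes relaxation, was at 17.6 ± 1.27 FPKM in laminin-positive and 0.278 ± 0.0693 FPKM in laminin-negative cells, having passed the filter only through the laminin-positive libraries. Rhoa was the gene that fell, at 236 ± 11.6 FPKM in laminin-positive and 298 ± 16.8 FPKM in laminin-negative cells, a call lost without laminin-positive replicate 1 (limma adjusted p = 0.0506) and without variance shared across genes (0.113). Without laminin-negative replicate 2, the list had 2 genes called lower. All 10 smooth muscle markers rose in the same libraries, and their part in this was not tested.

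The last list held 13 genes that desensitise receptors, shorten G protein signals or encode a receptor-interacting protein, all of them tested. In laminin-positive cells 9 rose and 2 fell, against 26.6% higher and 26.3% lower among all tested genes. The list's median log2 difference was 0.43. Rgs5, which speeds the shut-off of Gq and Gi and is also on the pericyte list, was at 76.7 and 76.7 FPKM in laminin-positive and 2.75 and 2.72 FPKM in laminin-negative libraries (28.1-fold, limma adjusted p = 5.78e-11). Rgs4, of the same family, rose 7.66-fold, and the receptor kinase gene Grk3 4.38-fold to 8.18 ± 0.167 FPKM in laminin-positive cells, against 1.87 ± 0.473 FPKM in laminin-negative cells. Mtus1, which encodes an AT2 receptor-interacting protein, and the arrestin gene Arrb1 fell slightly, at 7.12 ± 0.197 and 15.1 ± 0.284 FPKM in laminin-positive and 10.5 ± 0.207 and 19.6 ± 2.53 FPKM in laminin-negative cells. The call of Arrb1 (limma adjusted p = 0.0115) was lost without laminin-negative replicate 1 (0.0706), with equal FPKM sums (0.0829) and without variance shared across genes (0.194). Without variance shared across genes 4 of the list were called higher and 1 lower, and 1 was called lower without laminin-negative replicate 1 and with equal FPKM sums.

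**Figure D4:**
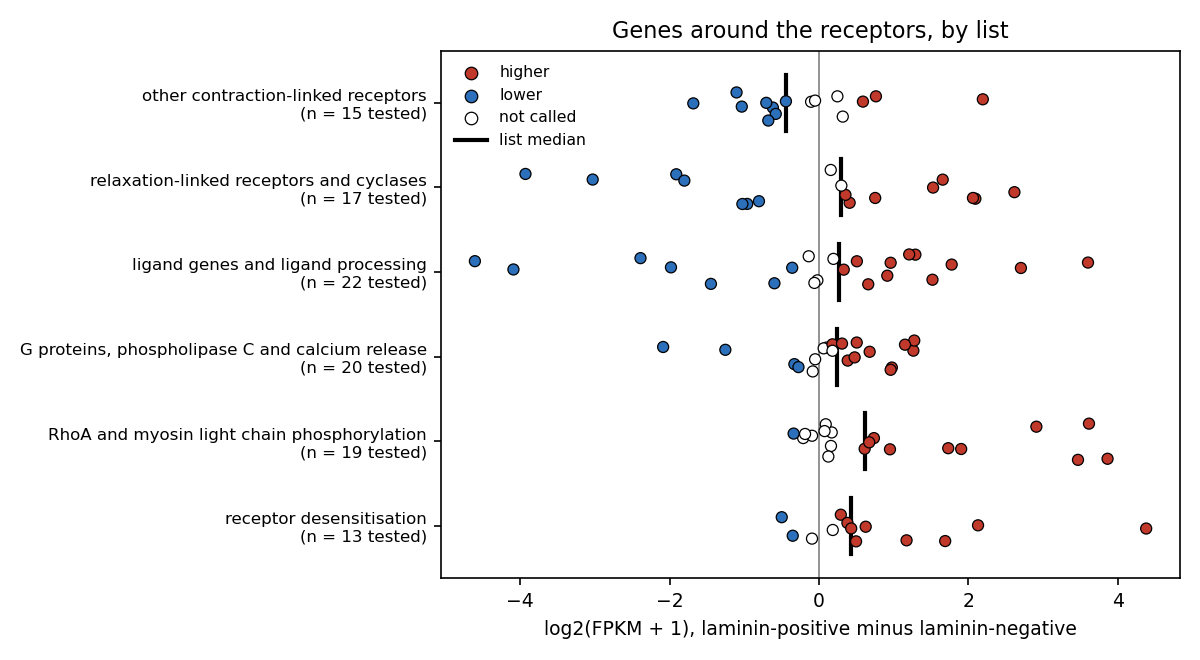
Difference of log2(FPKM + 1), laminin-positive minus laminin-negative, for each tested gene of 6 lists around the receptors; red points were called higher, blue lower and white not called, black bars are list medians and vertical jitter within a list has no meaning. The medians run from −0.44 for other contraction-linked receptors to 0.61 for RhoA signalling and myosin light chain phosphorylation.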

How the data were processed

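Per the labels' protocols, RNA of the sorted cells (RNeasy micro kit) went into directional libraries (NEBNext Ultra Directional). The deposited values are FPKM per gene row, per the file headers. Cufflinks 2.2.1 and TopHat2 2.1.1 appear in the submitters' processing notes. Genome build, strand setting and scaling across libraries were not given in the sources used here. Of 21203 rows with a matching symbol in GENCODE M21 (GRCm38), 99.6% overlapped that gene, so GRCm38 coordinates are given.

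The members and lists were chosen with earlier results of these data known, so counts over them support nothing on their own. Genes with at least 1 FPKM in at least 2 libraries were compared on log2(FPKM + 1), which understates changes near or below 1 FPKM, with limma 3.58.1 (R 4.3.3, intensity trend, two-sided, Benjamini-Hochberg over all 12348 genes, threshold 0.05). Residual degrees of freedom were 2 and prior ones 8.21 (median). The procedure was tested on simulated data with far fewer changed genes than were called here. That test does not show the error rate of the calls made here. Fold differences are ratios of mean FPKM. Of each list, the 3 largest changes in each direction were named, with ligands, enzymes and paralogues of the members, except for 1 gene that is not reported here. Of 234 list entries, 233 were found, 5 of them under an older symbol and 3 in rows that merge genes.

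Read totals are not given. The lowest values of single-transcript genes, as FPKM times transcript length in kilobases, gathered at 0.0355 to 0.0379 per library, in a window from 0.025 to 0.05 chosen after seeing the values, and the exact depth is unknown. Counting error is therefore largest for genes near or below 1 FPKM. Alternatives were another pseudocount, no filter, equal FPKM sums without Rn45s, quantile normalization, no intensity trend, no shared variance, a replicate block and each library left out.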

Additional observations from a re-analysis of the deposited data

How the results depend on the processing

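Ednra, Ednrb, Avpr1a, Oxtr and Tbxa2r kept their direction and their calls under all 11 alternatives. Ednrb, Oxtr and P2rx1 passed the filter through a single group, so their direction was built in wherever the filter was kept. Among members, 3 were called higher and 3 lower, except for 4 higher with equal FPKM sums or without an intensity trend, which added Agtr1a, and 2 higher without variance shared across genes, which removed P2rx1. Without variance shared across genes, 1346 of all tested genes were called higher and 1211 lower. Leaving out 1 library gave 2587 to 3254 higher and 2610 to 3064 lower. Equal FPKM sums moved the median log2 difference of all genes to 0.11 and the split to 4255 higher and 2382 lower (64.1% higher, against 50.3%), and none of the 7 tested members changed direction. Deviations from the group means of same-numbered libraries correlated at r = 0.00809 across genes. A correlation near 0 does not show whether same-numbered samples came from the same animals. With the replicate block, 3 members were called higher and 3 lower, among 3376 and 3343 genes. Lnpep and Akr1b3, neither of them called, changed sign. The log2 difference of Lnpep was 0.051 with equal FPKM sums and −0.355 to 0.231 with 1 library left out. That of Akr1b3 was 0.098 with equal FPKM sums, 0.06 under quantile normalization and −0.08 to 0.036 with 1 library left out. The cause was not tested. A pseudocount of 0.1 FPKM moved the log2 difference of Ednrb to 5.04 and that of Oxtr to −5.12, and of the untested Edn1 to 1.51. Without a filter, Edn1 (limma adjusted p = 0.0881), Adra1d (0.217) and Ptgfr (0.905) were not called. Depth limits the members below 1 FPKM most.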
